A study of Triticum aestivum with 8 samples.

Results

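Open chromatin of cold-treated axillary buds was compared with that of seedling roots in the bread wheat cultivar AiKang58 (Triticum aestivum, a hexaploid). The comparison used the deposited ATAC-seq peak list of each tissue, 122118 bud peaks and 119387 root peaks, in which a peak is a stretch of DNA that a transposase cut more often than the background. These lists come from 4 of the 8 libraries of the series, 2 libraries per tissue, and each list stands for both libraries of its tissue. Roots were taken from seedlings 2 weeks old, kept in days of 16 h light (22 °C) and nights of 8 h (19 °C), with no cold treatment. Axillary buds of 1.0 to 2.0 cm were taken from plants labelled 6 weeks old that had been moved to 4 °C for 30 days (vernalized) at the age of 2 weeks. The same days and nights as for roots are given for these plants. Both tissues carry the same cultivar genome, and no mutant or transgene is named for either. Organ, age and cold therefore differ together between the groups and cannot be told apart. No file gives a height, score or count for a peak or a value for a library. No replicate error could be computed and no test was run, so intervals below (95%, Wilson) cover counting error over peaks only, and counts of chromosomes describe the spread within a list. The number of reads behind each list is unknown, and the lack of a peak does not show closed chromatin.

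As background, an axillary bud is a shoot meristem enclosed by young leaves in the axil of a leaf, and in grasses it can grow out into a tiller. Roots carry their own apical meristem and grow without forming leaves or buds. In winter-type wheats prolonged cold makes plants competent to flower. Accessible stretches of plant chromatin usually mark promoters, enhancers and other sites where transcription factors can bind, and in the large wheat chromosomes genes are packed more densely toward the ends. Bread wheat holds 3 related subgenomes, A, B and D, each with 7 chromosomes, so that chromosomes 1A, 1B and 1D form homoeologous group 1 and so on. SPL proteins, the transcription factors whose binding the series was designed around, act in shoot branching and in the passage to flowering. No source used here names the genome build of the lists, and no gene or sequence was assigned to a peak.

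Close to 50% of the accessible sites of each tissue had no counterpart in the other. Of the bud peaks 60815 overlapped a root peak by at least 1 bp, a share of 49.8% (49.5 to 50.1), and 61303 did not (50.2%). Of the root peaks 61964 overlapped a bud peak, 51.9% (51.6 to 52.2), and 57423 did not (48.1%). Peaks that overlap the other list are called shared here, and the rest bud-specific or root-specific, which says nothing about other tissues. On single chromosomes the shared share ran from 46.2% on 6B to 52.6% on 2A in buds and from 49.6% on 7D to 56.1% on 6B in roots. Over the 21 chromosomes its mean was 49.7% ± 1.54 (SD) in buds and 52.05% ± 1.84 in roots. Shared peaks held more of the accessible DNA than their number alone would give, with 63.6% of the bases under bud peaks and 61.1% of those under root peaks. The bases under a peak of both tissues at once came to 37.5 Mb, which is 39.7% of the bud bases and 47.2% of the root bases.

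The line between shared and specific at 1 bp touched few peaks. Among the shared, 369 bud and 327 root peaks overlapped the other list by under 50 bp in all, and the shortest overlap was 1 bp. Among the specific, 378 bud and 331 root peaks lay within 50 bp of a peak of the other list without touching it by a base. A stricter rule moved the line far more. When a pair had to cover 50% of both peaks, 29.0% of bud peaks and 29.6% of root peaks were shared.

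Shared sites were wide and specific sites narrow in both tissues. Shared bud peaks had a median width of 750 bp (quartiles 450 and 1225) and bud-specific peaks 425 bp (325 and 650). Shared root peaks had a median of 600 bp (400 and 937) and root-specific peaks 400 bp (300 and 625). Of the shared bud peaks 8.94% were at least 2 kb wide, against 1.33% of the bud-specific, and in roots the shares were 4.55% and 1.34%. A wide peak overlaps another list more easily than a narrow one, and this part of the contrast was not separated.

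The share of peaks with a counterpart climbed with width, along a different course in each tissue. Among peaks of 200 to 299 bp the shares were alike, 32.0% (31.3 to 32.7) in buds and 32.1% (31.4 to 32.8) in roots. Among peaks of 400 to 499 bp they were 35.6% (34.9 to 36.3) in buds and 48.0% (47.3 to 48.7) in roots. From 1000 bp upward the order turned: 72.5% (71.8 to 73.2) of bud peaks of 1000 to 1499 bp were shared, against 70.8% (69.9 to 71.6) of root peaks. At 2000 to 3999 bp the shares were 86.0% (85.0 to 86.9) in buds and 77.5% (76.0 to 78.9) in roots. Wide root peaks thus lacked a bud counterpart more often than equally wide bud peaks lacked a root counterpart. Among peaks of 300 to 999 bp, bud peaks lacked a counterpart more often than root peaks.

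**Figure D1:**
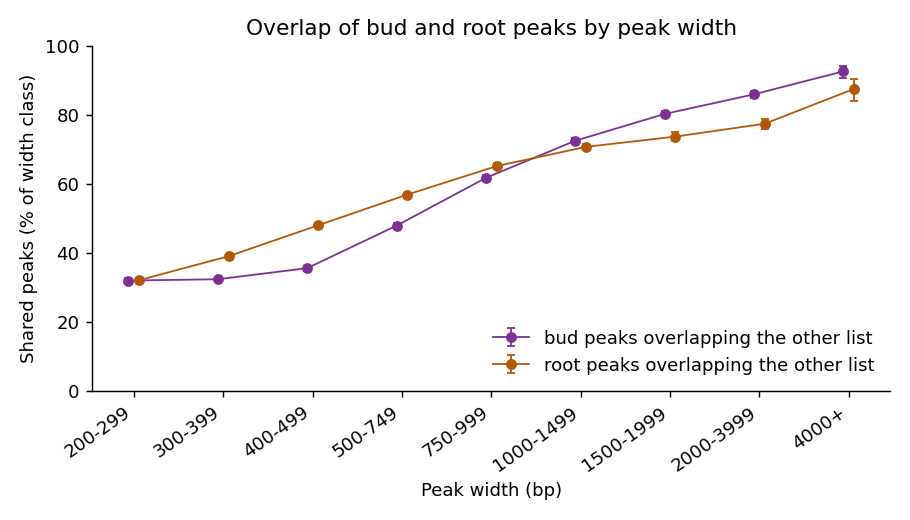
Share of bud peaks (purple) and root peaks (brown) that overlap the other list by at least 1 bp, in percent of each width class (bp); bars are 95% Wilson intervals over peaks. Both curves climb from about 32% at 200 to 299 bp, the root curve lies higher from 300 to 999 bp, and the bud curve lies higher from 1000 bp upward.

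The way the lists were made may bear on widths. Widths were multiples of 25 bp in 95.7% of root peaks and in 82.1% of bud peaks, and the share was nearly equal in shared and specific peaks of a list (82.1% and 82.0% in buds, 95.4% and 96.1% in roots). The smallest width was 201 bp in both lists. The part of this difference in the comparison of widths was not tested.

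Where a site was accessible in both tissues, the bud peak was usually the wider. The lists formed 64482 overlapping pairs, and in 53076 of them (82.3%) each peak had a single partner. In these single-partner pairs the bud peak was wider in 59.8%, the root peak in 36.7%, and both had the same width in 3.49%. The median ratio of bud to root width was 1.17, with 1.13 to 1.24 on single chromosomes, so that the direction was the same on all 21. The bud peak was at least 2 times as wide in 10909 pairs and the root peak in 4622. The root peak lay inside the bud peak in 34.2% of pairs, the bud peak inside the root peak in 21.5%, and 44.0% were staggered. Only 151 pairs had the same start and end.

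Paired peaks lay close to one another. Their midpoints were a median of 121 bp apart (upper quartile 240 bp), and the overlap took up a median of 57.5% of the joint length (quartiles 38.8 and 76.2%). The excess in bud width was larger near the chromosome ends. In the outer 20% of the length at either end, called distal from here on, the bud peak was wider in 62.0% of 34470 pairs (median ratio 1.22), against 55.6% of 18606 pairs in the interior (median ratio 1.09). Peaks with several partners were rarer: 3269 bud peaks (5.38% of the shared) joined 2 or more root peaks, up to 6, and 2297 root peaks (3.71%) joined 2 or more bud peaks, up to 7.

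Among the 5 widest single-partner pairs some peaks were nearly equal and others lopsided. The largest joint length of such a pair lay on 4B:585957887-585968486, where a root peak of 10600 bp held a bud peak of 300 bp. On 3A:749278774-749289148 the bud peak was the wide one, with 10375 bp around a root peak of 4350 bp. On 2D:11034771-11043072 a bud peak of 8302 bp held a root peak of 750 bp. On 7B:319851326-319860900 and on 7D:366445646-366454270 the tissues nearly matched, with 9575 bp in buds and 8575 bp in roots at the former and 8625 and 7975 bp at the latter. The shared class thus holds both sites of equal extent and sites where a single narrow peak lies in a broad domain of the other tissue.

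The widest specific peaks were several kilobases long. In buds they lay on 2A:19442356-19450819 (8464 bp), on 1B:672954257-672961692 (7436 bp) and on 4A:650055807-650063236 (7430 bp). The next lay on 7D:11910872-11918057 (7186 bp) and on 7A:24922592-24929650 (7059 bp). The nearest root peak was 642 bp from the 2A peak and 80497 bp from the 7A peak, with the other 3 in between. In roots a peak of 12050 bp, the widest of the whole root list, had no bud counterpart. It lay on 7B:292831126-292843175, with a bud peak 2092 bp away. The other wide root-specific peaks lay on 1B:667079581-667087830 (8250 bp, 125054 bp from any bud peak), on 5D:557053063-557061003 (7941 bp), on 3A:359567799-359574623 (6825 bp) and on 3B:785546795-785553169 (6375 bp). Of these root peaks 2 lay deep in the chromosome, 293 Mb (7B) and 360 Mb (3A) from the nearer end, while all 5 bud peaks lay within 94.5 Mb of an end.

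Most specific peaks were not near misses of a peak in the other tissue, and bud-specific peaks lay closer to the other list than root-specific peaks. The median distance from a bud-specific peak to the nearest root peak was 5466 bp (quartiles 1414.5 and 27629.5), and from a root-specific peak to the nearest bud peak 11428 bp (quartiles 2330.5 and 69550.5). Within 500 bp lay 10.6% of bud-specific and 7.50% of root-specific peaks. Farther than 100 kb from any peak of the other list lay 11.6% of bud-specific and 19.6% of root-specific peaks. The bud median was the smaller on 21 of 21 chromosomes. Distal medians were 4681 bp (bud-specific) and 7967 bp (root-specific), and interior medians 8417 and 24544 bp. The peaks farthest from the other list both lay on 1B, a bud-specific peak at 156580424-156580673 at 3.74 Mb from the next root peak, and a root-specific peak at 77628227-77628851 at 3.03 Mb from the next bud peak. These parts of 1B were poor in peaks of both tissues. There were 200 bud and 268 root peaks from 0 to 138 Mb, and 213 and 174 from 138 to 276 Mb. The part of this, and of the rye arm named below, in the distances was not tested.

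**Figure D2:**
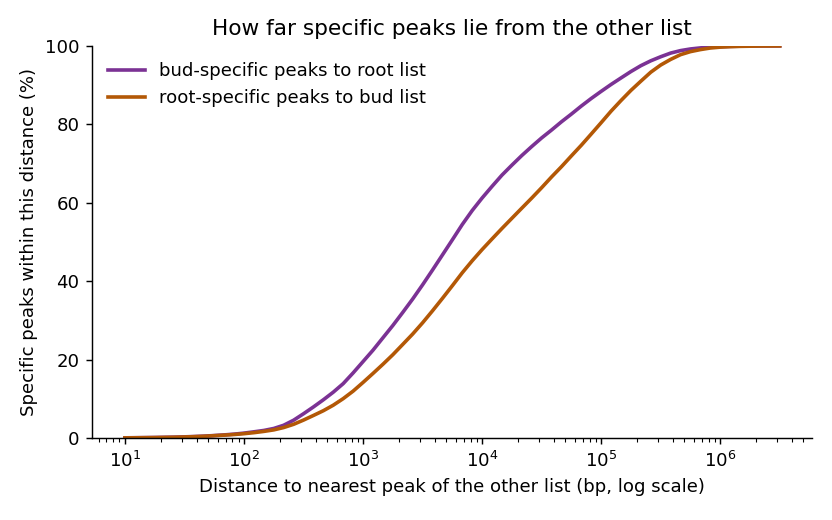
Cumulative percent of bud-specific peaks (purple) and root-specific peaks (brown) within a given distance (bp, log scale) of the nearest peak of the other list. The bud curve lies above the root curve over most of the range, with 61.2% against 48.1% within 10000 bp.

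All classes of peaks were densest toward the chromosome ends, bud-specific peaks most and root-specific peaks least. Of the bud-specific peaks 69.8% (69.4 to 70.1) were distal, against 60.3% (59.9 to 60.7) of the root-specific. Shared peaks lay between them, at 65.6% (65.3 to 66.0) by bud peaks and 66.1% (65.7 to 66.4) by root peaks. The contrast of root-specific with shared root peaks depended on the overlap rule, and with a reciprocal overlap of 50% these shares were 63.1 and 63.7%. At 1 bp the order held on every chromosome: bud-specific peaks were more distal than shared bud peaks, and root-specific peaks less distal than shared root peaks, on 21 of 21. The gap between bud-specific and root-specific peaks averaged 9.41 percentage points ± 2.35 (SD over 21 chromosomes) and ran from 4.53 on 3B to 13.6 on 7A. The median distance to the nearer end was 68.3 Mb for bud-specific, 84.1 Mb for shared bud, 82.8 Mb for shared root and 100.2 Mb for root-specific peaks. The last peak end in either list stood for the end of a chromosome, so these distances are not to a telomere.

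The balance of specific peaks shifted with distance from the end. In the outermost 1% at each end there were 18.2 bud-specific and 9.70 root-specific peaks per Mb, a ratio of bud-specific to root-specific peaks of 1.87. The ratio was 1.64 from 1 to 2.5% of the length, 1.42 from 2.5 to 5% and 1.12 from 5 to 10%. It was near 1 from 10 to 20% (0.97) and below 1 in the interior, at 0.85 from 20 to 30%, 0.79 from 30 to 40% and 0.78 from 40 to 50%. At the centre of the chromosomes there were 1.74 bud-specific and 2.22 root-specific peaks per Mb. Within the last 1 Mb of an end lay 870 bud-specific and 379 root-specific peaks.

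The shared shares of the tissues moved in opposite directions along the same axis. In the outermost 1%, 59.1% (57.9 to 60.3) of root peaks but 42.5% (41.4 to 43.5) of bud peaks had a counterpart. In the innermost zone, from 40 to 50% of the length, 47.8% (46.9 to 48.7) of root peaks and 53.7% (52.7 to 54.6) of bud peaks had one. Bud peaks were more numerous than root peaks at the ends (8886 against 6671 in the outermost 1%) and fewer in the innermost zone (10587 against 11985). The list with more peaks in a zone was the one with the lower shared share there. Overlap is mutual, and in each zone the density of shared peaks was close in both lists. The order of the shares, and their opposite courses, thus follow largely from the numbers of peaks. They are no finding separate from the balance of peak numbers. Peaks also tended to be wider at the ends, with a median of 575 bp in buds and 502 bp in roots in the outermost 1%, against 523 and 475 bp in the innermost zone. The distal lead of bud-specific peaks was present among narrow and wide peaks alike, at 8.64 to 10.9 percentage points in 5 classes of width.

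**Figure D3:**
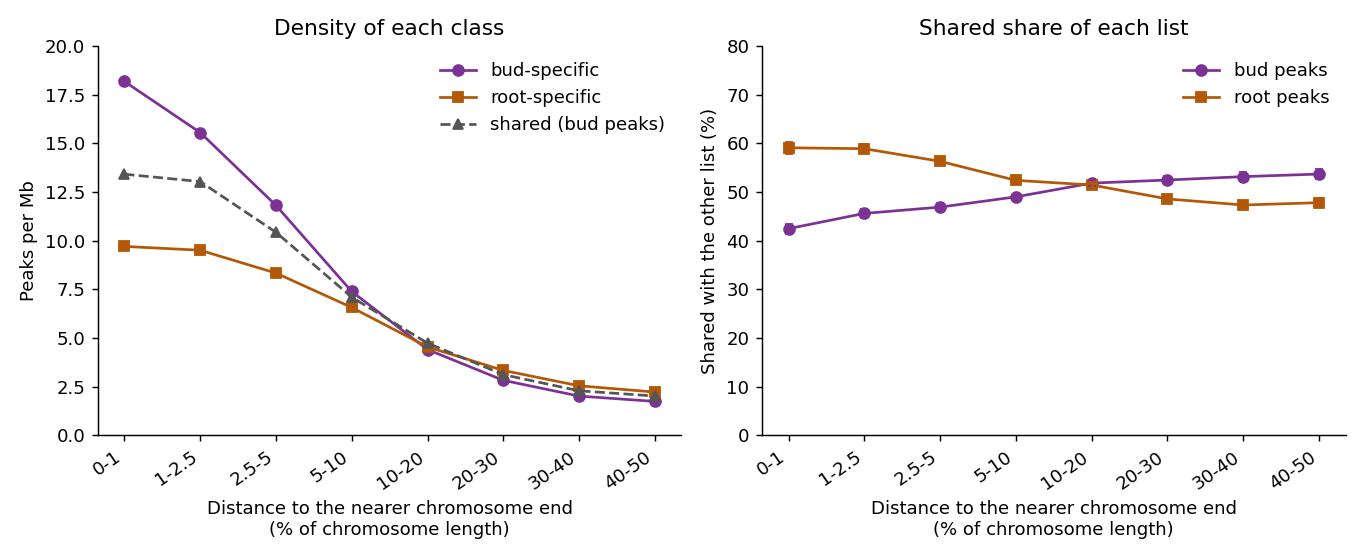
Left, peaks per Mb of bud-specific (purple), root-specific (brown) and shared peaks (grey, counted as bud peaks) by distance to the nearer chromosome end in percent of chromosome length; right, share of bud and root peaks that overlap the other list, with 95% Wilson intervals. Bud-specific peaks reach 18.2 per Mb in the outermost 1% and root-specific peaks 9.70, and the curves cross between 5 and 20% of the length.

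Chromosome ends did not all follow this pattern. In the outer 5% bud-specific peaks outnumbered root-specific peaks at 38 of the 42 chromosome ends. The ratio of the former to the latter was largest at the start of 4B, with 442 bud-specific and 162 root-specific peaks, followed by the far end of 6A (630 and 250) and the start of 4A (414 and 171). The far end of 1D (630 and 274) and the start of 4D (409 and 184) came next. The exceptions were the start of 1A (236 and 259), the start of 1B (65 and 69), the far end of 4A (306 and 310) and the start of 5B (193 and 206). Chromosome 4A thus had a bud excess of 2.42 to 1 at its start and none at its far end. The start of 1B was poor in peaks of both tissues, with 95 bud and 99 root peaks in the outer 5%. As background, AiKang58 is known to carry a rye chromosome arm in place of the short arm of 1B, and the part of this in the low number was not tested.

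The balance of specific peaks also differed between whole chromosomes. Over both whole lists there were 1.07 bud-specific peaks for each root-specific peak. The ratio was above 1 on 16 of 21 chromosomes and above 1.07 on 10, with a mean of 1.08 ± 0.12 (SD). Chromosome 6B stood highest, with 3471 bud-specific and 2419 root-specific peaks (1.43), followed by 4B (2595 and 2038, 1.27) and 6A (2368 and 1896, 1.25). Chromosome 7D stood lowest, with 3148 bud-specific and 3369 root-specific peaks (0.93). The ratio was also below 1 on 3D and 2B (0.97 each), 2D (0.97) and 2A (0.99). Once narrow peaks were dropped (under 525 bp, the median width of both lists together), 64677 bud and 56351 root peaks remained and the ratio over both lists was 1.33. Overlap was counted anew among these peaks, so a peak whose only partners were narrower than 525 bp counted as specific here. The part of this in the ratio was not tested. The ratio of bud-specific to root-specific peaks was then above 1 on 21 of 21 chromosomes. On 7D, 3D and 2B it was 1.15, 1.17 and 1.17, below the ratio of the lists. With the bud list cut to the number of root peaks by dropping its narrowest peaks, the ratio over both lists was 1.02 and 13 chromosomes were above 1. Bud peaks tied at the cutoff width of 225 bp were dropped from the last chromosomes first. Values of single chromosomes under this cut thus partly reflect chromosome order. In each of these settings 6B stayed highest and 7D lowest. Chromosome 7D is the last in that order, so its place under the cut, with a ratio of 0.85, is no separate support.

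Set against the ratio of the whole lists, 1.07, the 3 chromosomes of a homoeologous group lay on the same side in 3 of 7 groups. Those of group 6 were all above it (1.25 on 6A, 1.43 on 6B and 1.13 on 6D), and those of groups 2 (0.97 to 0.99) and 3 (0.97 to 1.05) all below it. Group 6 lay wholly above and group 2 wholly below the ratio of the lists also with a reciprocal overlap of 50%. The same held among peaks of at least 525 bp and with the bud list cut. Group 3 was split only with the bud list cut, where values partly reflect chromosome order. Groups 1 (1.03 to 1.09), 4 (1.03 to 1.27), 5 (1.07 to 1.11) and 7 (0.93 to 1.07) were split at 1 bp. The split of group 5 rests on 5B alone, at 1.066 against 1.068 for the lists. With the reciprocal overlap group 5 lay wholly above the ratio of the lists. With the bud list cut, group 1 lay wholly above it and groups 5 and 7 wholly below it, again with an effect of chromosome order. Summed over a group the ratio was 1.28 in group 6, 1.14 in group 4, 1.09 in group 5, 1.07 in group 1, 1.01 in group 3, 1.002 in group 7 and 0.98 in group 2.

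The ratio was higher in the distal part than in the interior on every chromosome. In the distal part bud-specific peaks outnumbered root-specific peaks on 21 of 21 chromosomes, with ratios from 1.09 on 2B to 1.60 on 6B. In the interior they did so on 1 of 21, chromosome 6B (1.14), and on the other chromosomes root-specific peaks were the more numerous, down to a ratio of 0.64 on 7A. Cut into 5 equal parts from start to far end, 6B had ratios of 1.49, 0.97, 1.44, 1.13 and 1.70. On 7D the ratios were 1.08, 0.64, 1.20, 0.51 and 1.10, so that the outer and the middle parts leaned to buds and the parts between them to roots.

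**Figure D4:**
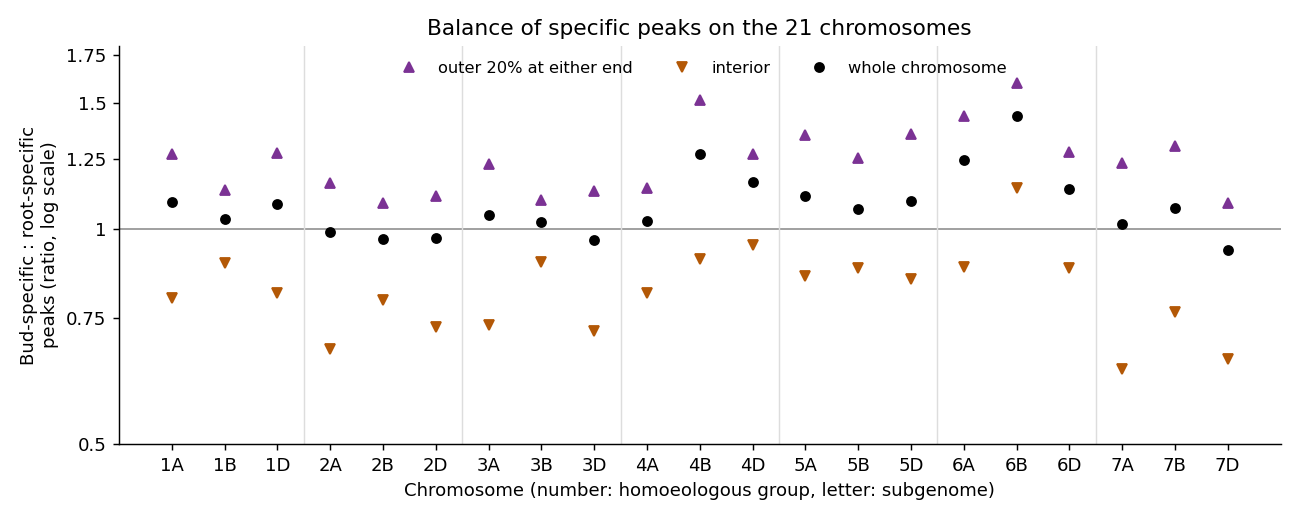
Ratio of bud-specific to root-specific peaks (log scale) on each of the 21 chromosomes, for the whole chromosome (black), the outer 20% at either end (purple) and the interior (brown). All distal values lie above 1 and all interior values but that of 6B (1.14) below 1.

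The subgenomes held nearly equal numbers of each class, and the D subgenome, the shortest, was the densest in both classes of specific peaks. Bud-specific peaks numbered 20063 on A, 20655 on B and 20585 on D, and root-specific peaks 18856, 18642 and 19925. The D share was 33.6% (33.2 to 34.0) of bud-specific and 34.7% (34.3 to 35.1) of root-specific peaks, and the B share 33.7% (33.3 to 34.1) and 32.5% (32.1 to 32.8). D chromosomes carried 5.21 ± 0.38 bud-specific peaks per Mb (SD, 7 chromosomes), A chromosomes 4.06 ± 0.24 and B chromosomes 3.98 ± 0.53. Root-specific densities were 5.003 ± 0.56, 3.80 ± 0.38 and 3.58 ± 0.48 in the same order. D was the densest of the 3 in 7 of 7 homoeologous groups for both classes. The B values include 1B, the chromosome with the rye arm named above. Chromosome 1B carried 3.04 bud-specific peaks per Mb, against 3.85 (4B) to 4.81 (6B) on the rest of B. Its root-specific density was 2.95, against 3.03 (4B) to 4.20 (2B). The part of 1B in the B means, and in their order with the A means, was not tested.

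The density ratio of D to A was 1.28 ± 0.07 for bud-specific and 1.32 ± 0.14 for root-specific peaks (SD over 7 groups), and of D to B 1.33 ± 0.24 and 1.41 ± 0.17. For shared bud peaks these ratios were 1.25 ± 0.08 and 1.37 ± 0.24. The differences between classes were smaller than these SDs over the 7 groups. The SDs do not take into account that the classes are paired within a group, so they do not show that the classes are alike. The D to B values include group 1, where 1D carried 5.62 bud-specific peaks per Mb and 1B 3.04. For bud-specific peaks the largest D to B ratio of a group was 1.85. The part of 1B in the D to B means and SDs was not tested. The ratio of bud-specific to root-specific peaks was 1.11 on B, 1.06 on A and 1.03 on D. Without group 6 it was 1.06 on B, 1.04 on A and 1.02 on D. D had the highest ratio of its group in 0 of 7 groups, A in 4 and B in 3. The lowest was on D in 3 groups, on B in 3 and on A in 1. The distal share was lowest on B in both classes, at 66.8% of bud-specific and 58.3% of root-specific peaks, against 72.8 and 62.2% on A and 69.8 and 60.4% on D.

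Numbers of peaks per 1 Mb were also compared, in the peak-rich windows alone. Of 4127 windows with at least 20 peaks of both lists together, 140 (3.39%) were at least 2-fold richer in bud peaks and 152 (3.68%) at least 2-fold richer in root peaks, after counts were scaled to list size and 1 was added to each. With unscaled counts the numbers were 163 and 152, and with a minimum of 10 peaks 308 and 687 of 8089 windows. A like number of peaks does not mean the same peaks, since 50.3% of the bud peaks and 44.4% of the root peaks in the 4127 windows were specific. Bud-rich windows lay near the ends, at a median of 5.70% of the chromosome length, and 87.9% of them were distal. Root-rich windows lay at a median of 16.8%, with 59.2% distal, and all tested windows at 10.1%, with 76.4% distal. Chromosome 4B had 18 bud-rich and 3 root-rich windows of 155 tested, and 6B 15 and 3 of 204. Chromosome 6A had 11 and 3 of 139, and 4A 11 and 5 of 197. In the other direction 2A had 0 bud-rich and 9 root-rich windows of 221, and 2D 2 and 12 of 245. Chromosome 2B had 6 and 13 of 242, and 7D 5 and 13 of 213. On the D subgenome 33 windows were bud-rich and 68 root-rich of 1440 tested. The numbers were 50 and 43 of 1341 on A and 57 and 41 of 1346 on B.

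**Figure D5:**
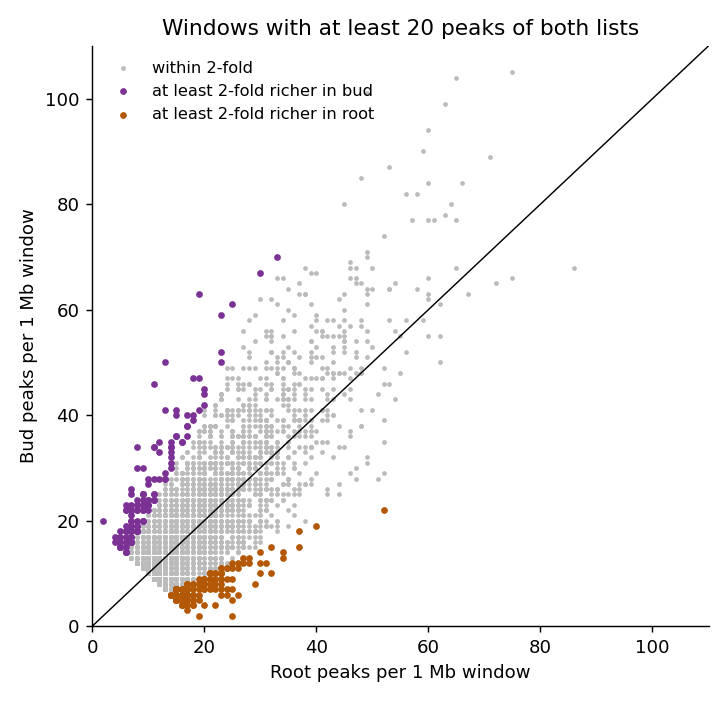
Number of bud peaks (y axis) and root peaks (x axis) in each 1 Mb window with at least 20 peaks of both lists together; coloured windows differ at least 2-fold after scaling to list size, and the line marks equal numbers. Of 4127 windows 140 are bud-rich (purple) and 152 root-rich (brown).

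The windows with the largest ratios were bud-rich ones near chromosome ends and root-rich ones both near and far from an end. On 1D:32000001-33000000 there were 20 bud and 2 root peaks, and 18 of the bud peaks were bud-specific. The first 1 Mb of 6B had 46 bud and 11 root peaks, and 6A:6000001-7000000 had 34 and 8. In the other direction, on 2A:54000001-55000000 there were 25 root and 2 bud peaks, on 7B:443000001-444000000 19 and 2, and on 2B:755000001-756000000 22 and 4. The 7B window lay at 40.9% of the chromosome length from an end, while the 6B window was the terminal one.

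Specific peaks also came in unbroken runs. A run here is a series of neighbouring peaks of a tissue with no peak of the other tissue on or between them. Most runs were a single peak, 60.9% of 35093 bud runs and 58.4% of 30900 root runs. Runs of 5 or more held 15.7% of bud-specific and 19.6% of root-specific peaks. Of the runs of 10 or more, 95 were bud runs and 124 root runs, and 87 of the former and 78 of the latter were distal. Their median distance to an end was 3.40% of the chromosome length for bud runs and 10.2% for root runs.

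The longest run of buds held 39 peaks and the longest of roots 17. On 5A:2365143-2994958, a stretch of 630 kb with its middle 2.68 Mb from the end, buds had 39 peaks and roots none. The next lay on 7D:24316298-24737545, with 24 bud peaks in 421 kb, and on 6B:8047-164631, with 22 bud peaks in 157 kb at the very end of the chromosome. The longest root runs had 17 peaks each and lay on 6B:6602453-6792049, on 7A:29703493-29918601, on 7B:673964206-674146575 and on 7D:503697235-504170688. The first of them lay 6.70 Mb from the same end of 6B as the bud run, so that the end of 6B held a long run of each tissue.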

How the data were processed

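ATAC-seq peaks of axillary buds and roots were analysed as deposited. Per the submitters' processing notes, reads were processed with Trimmomatic 0.36, Bowtie2, MACS2 and bedtools. No source used here gives their versions beyond this, the peak threshold, the build of the genome or how the 2 libraries of a tissue were joined. Each deposited list has 3 columns (chromosome, start, end), with starts taken as counted from 0 and printed counted from 1. The lists are free of overlaps within themselves and lie on 21 chromosomes. Overlap, distances, runs and windows were computed in Python 3.11.15 (numpy 2.4.6, pandas 2.3.3, scipy 1.17.1) with code tested on simulated peaks. Chromosome length was the last peak end of either list. Positions of the RefSeq gene table (assembly IWGSC CS RefSeq v2.1) were not used, because on 21 of 21 chromosomes that table runs past the last peak, by 0.169 to 21.9 Mb. Named regions followed a rule: the 5 widest specific peaks of each tissue, the 5 widest single-partner pairs, the 3 windows with the largest ratio each way, the 3 longest runs (ties included) and the chromosomes at the extremes. Other chromosomes, chromosome ends and parts of chromosomes were chosen after their values were seen. Members and classes were chosen with earlier results of these data known. The leaf and shoot apex lists were not used here.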

Additional observations from a re-analysis of the deposited data

How the results depend on the processing

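No paired analysis was possible because each list joins both libraries of a tissue, which also kept single replicates from being left out. With a reciprocal overlap of 50% the shared share was 28.96% in buds and 29.6% in roots. Counting peaks within 500 bp as shared gave 55.1 and 55.5%. It was 44.8 and 52.5% among peaks of at least 525 bp and 50.3 and 51.3% with the bud list cut to 119387 peaks. Root peaks had the higher share in each setting. Overlap is mutual, and the root list was the shorter in all settings but the cut. In those settings this order follows at least in part from list size. Among peaks of at least 525 bp, overlap was counted after narrower peaks had left both lists. A peak with only narrower partners thus counted as specific. These shares are therefore not those of wide peaks against the whole other list. There were 35696 bud-specific and 26763 root-specific peaks in this setting. The distal lead of bud-specific over root-specific peaks kept its sign in each setting. It was 6.23 percentage points with the reciprocal overlap, 8.69 among peaks of at least 525 bp, 11.5 in the outer 10% and 8.17 within 20 Mb of an end. In classes 1, 3 and 5 of width, counted from the narrowest, it was 8.64, 8.84 and 10.9, and leaving out each homoeologous group gave 9.05 to 9.65. For whole lists the bud lead was 5.39 points in the outer 10%, 3.78 within 20 Mb of an end and 3.83, 5.28, 3.09, 3.21 and 4.81 in the 5 classes of width, with 4.201 to 4.505 on leaving out a group. Bud-rich windows numbered 76 of 4186 at 2 Mb, 308 of 8089 with at least 10 peaks and 79 of 1594 among peaks of at least 525 bp. Root-rich windows numbered 175, 687 and 51, so which tissue had more such windows depended on the setting, and the cause was not tested. Among peaks of at least 525 bp the ratio of bud-specific to root-specific peaks was above 1 on 7D (1.15), 3D (1.17) and 2B (1.17), below the 1.33 of these lists. Depth is unknown and limits every comparison of list sizes.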

Other observations

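In the interior root peaks outnumbered bud peaks on each chromosome but 6B (1966 bud and 1833 root peaks), and single windows had the opposite balance. These windows were looked for after the data were seen, in windows of 10 Mb between 20 and 80% of the chromosome length, and the windows named are the highest of their chromosome, so their ratios are extremes by construction. Buds led roots, after scaling to list size, in 274 of 845 such windows (32.4%). The highest window of a chromosome reached a ratio of at least 1.5 on 16 of 21 chromosomes. On 6A it ran from 280 to 290 Mb with 33 bud and 12 root peaks, on 6D from 210 to 220 Mb with 32 and 12, and on 6B from 330 to 340 Mb with 61 and 32. On 5D from 180 to 190 Mb there were 45 bud and 18 root peaks, on 3D from 230 to 240 Mb 57 and 24, on 2B from 340 to 350 Mb 40 and 18, and on 3B from 320 to 330 Mb 55 and 26. The 3 highest windows of a chromosome spanned at most 40 Mb on 8 of 21 chromosomes, as on 2B, 1D, 4B and 5A (30 Mb), and more on the other 13, up to 400 Mb on 6B. Centromere positions were not used here.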
